A study of Mus musculus with 10 samples.

Results

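The enzymes that attach ubiquitin to proteins and the proteases that take it off were followed here at the level of their mRNA in mature mouse sperm and in testes. Members were the genes whose symbol starts with Ube2, Usp or Uba followed by a number, or Otud, and which had at least 1 known mRNA transcript with an NM_ identifier in the tables. The rule found 99 genes with 129 such transcripts, of 16082 genes with an NM_ transcript and 69572 genes in all. By role they were 3 activating enzymes of ubiquitin, 3 activating enzymes of ubiquitin-like proteins, 29 ubiquitin conjugating enzymes, 4 conjugating enzymes of ubiquitin-like proteins, 2 conjugating enzyme variants without a catalytic cysteine, 47 ubiquitin-specific proteases and 8 OTU proteases. The other 3 match by name only, among them Usp6nl, a GTPase-activating protein, and Usp39, a splicing factor with an inactive protease fold.

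RNA came from C57BL/6 mice (C57BL/6J in the study's methods) that the labels give as 3 to 5 months old. The cadmium groups had received 1 intraperitoneal dose of CdCl2 at 3 mg/kg, the labels give saline for the control group, and all mice were killed on day 35. The study's methods name no injection for the control mice. Control sperm was sequenced as 4 pools, and control testes, cadmium sperm and cadmium testes as 2 libraries each. Each control sperm pool joined several mice, and control sperm pool 1, which the study set aside, was left out of the tests. By the study's methods the control testes came from the same mice as the control sperm, and which testes sample goes with which pools is not given, so the samples were tested as independent. Testes are a mixture of germ cells of all stages and somatic cells, so fewer cells of a type and less RNA per cell cannot be told apart in these samples.

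Ubiquitin is activated by an E1 enzyme, passed to an E2 conjugating enzyme and then joined to a target with the help of an E3 ligase, while deubiquitinases such as USP and OTU proteases cut it off again. A parallel set of E1 and E2 enzymes handles ubiquitin-like proteins such as SUMO and NEDD8. In the testis the pathway is known for its part in histone removal, meiotic sex chromosome silencing and the loss of cytoplasm as spermatids become sperm. Mature sperm are held to be largely silent in transcription, so their RNA is mostly what remained from earlier stages.

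Libraries differed widely in depth. The expected counts, which are estimates of the fragments from each transcript, summed to between 366455 and 1058017 in control sperm, 1155491 and 1254477 in cadmium sperm and 2606086 and 2866856 in testes. In a library 3 counts were between 0.000105% and 0.000819% of the total, which covers counting error only. The late spermatid and sperm markers summed to between 332.54 and 568.92 FPKM in sperm and between 482.15 and 587.78 FPKM in testes (FPKM is the level per length of transcript and size of library). These sums join genes that ran in different directions. Prm1, Tnp1, Tnp2 and Akap4 were lower in every sperm library than in any testes library. Tssk6 was higher in every sperm library, and Spem1 in all but control sperm 3. Prm2 overlapped, and Odf1 was listed in control testes only. The 4 listed meiotic markers were at 0 in all 4 control sperm pools and in cadmium sperm 2. Cadmium sperm 1 held Sycp3 at 3.18 FPKM, inside the range of testes. The Leydig markers summed to 27.5 FPKM in control sperm 3, from 1 of 5 genes, beside 0 to 6.9 FPKM in the other sperm libraries and 15.6 to 22.2 FPKM in testes.

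The promoters of Usp35, Usp4 and Usp8 are shown, which are 3 of the 4 members called in both comparisons of sperm with testes (the other is Usp14). Those comparisons share no sample. Usp35 was higher in sperm, and Usp4 and Usp8 were lower. Each window runs from 250 bases before to 50 bases after a transcript start given by RefSeq (GRCm38.p6, the mm10 build of the files) and are written 5′ to 3′ on the gene's own strand. Capitals mark 3 GC boxes (GGGCGG or its reverse complement) in Usp35 and in Usp4, and 2 GC boxes and 1 CRE core (TGACG) in Usp8. The windows lie at chr7:97332060-97332359 on the minus strand for Usp35, at chr9:108347581-108347880 on the plus strand for Usp4 and at chr2:126707078-126707377 on the plus strand for Usp8. These starts lie inside the whole span that RefSeq gives the gene, by 199 bases for Usp35, 1267 for Usp4 and 127 for Usp8.
Usp35: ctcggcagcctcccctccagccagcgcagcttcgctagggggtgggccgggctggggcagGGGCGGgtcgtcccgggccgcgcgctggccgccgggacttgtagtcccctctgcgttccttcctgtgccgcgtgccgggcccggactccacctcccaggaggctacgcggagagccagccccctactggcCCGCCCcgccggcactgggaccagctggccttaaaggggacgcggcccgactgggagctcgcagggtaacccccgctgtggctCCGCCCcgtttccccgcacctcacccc
Usp4: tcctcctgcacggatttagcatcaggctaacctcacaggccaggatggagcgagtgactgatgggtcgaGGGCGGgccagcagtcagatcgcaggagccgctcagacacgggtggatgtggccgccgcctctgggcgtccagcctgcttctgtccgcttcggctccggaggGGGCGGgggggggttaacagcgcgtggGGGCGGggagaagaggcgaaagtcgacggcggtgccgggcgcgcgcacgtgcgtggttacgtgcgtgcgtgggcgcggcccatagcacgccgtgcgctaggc
Usp8: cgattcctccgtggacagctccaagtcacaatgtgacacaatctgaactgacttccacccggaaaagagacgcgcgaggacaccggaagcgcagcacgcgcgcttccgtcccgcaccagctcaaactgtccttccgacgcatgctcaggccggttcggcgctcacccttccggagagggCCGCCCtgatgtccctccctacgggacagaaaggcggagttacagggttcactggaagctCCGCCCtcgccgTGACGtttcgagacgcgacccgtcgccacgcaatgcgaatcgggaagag

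Promoters of the members were rich in GC. The RefSeq table of promoters used here held 91 windows for 76 of the 99 members, 40 of them at the outer end of the gene's span and the others at starts inside it. They had a median GC content of 65.0%, beside 59.0% over 15292 windows of genes with an NM_ transcript here and 52.7% over all 32851 windows. A GC box was found in 69.2% of the members' windows, in 54.4% of the windows of NM_ genes and in 35.7% of all windows, counting both strands. The TATA box (TATAAA) stood in 6.59% of the members' windows, 8.95% of those of NM_ genes and 13.6% of all, and the CCAAT box (CCAAT) in 26.4%, 37.1% and 37.4%. The full CRE (TGACGTCA), the site known for CREM, a factor of germ cells after meiosis, was in the windows of Otud7a, Ube2b, Ube2h and Usp29, which is 4.40% of the members' windows beside 2.66% of those of NM_ genes and 1.79% of all. The CRE core, which every full CRE also holds, was in 28.6% of the members' windows, 26.9% of those of NM_ genes and 20.8% of all. Of the members called between sperm and testes that had a window, a GC box was present in 7 of 8 that were higher in sperm and in 6 of 9 that were lower. These are descriptions of letters in the windows, and no test was run on them.

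Shallow libraries listed few members. Control testes listed 84 members in each of 2 samples, cadmium testes 82 and 84, cadmium sperm 66 and 63, and the control sperm pools 1 to 4 listed 23, 57, 15 and 29. Sperm pool 2, with 1058017 counts, listed most of the control sperm pools, and pool 3, with 366455 counts, listed fewest. Within cadmium sperm and within cadmium testes the deeper library listed slightly fewer members than the other. Over the groups, 61 members were listed in at least 1 of control sperm pools 2 to 4, 90 in control testes, 77 in cadmium sperm and 87 in cadmium testes. Without control sperm pool 2 the first number was 32. The share of all NM_ genes listed was 45.8%, 86.5%, 60.03% and 85.9% in the same order, and that of the members was 61.6%, 90.9%, 77.8% and 87.9%. Counts were low throughout, since 41 members stayed under 10 counts in every sample. The summed FPKM of the members was 0.374% ± 0.0479 of the NM_ FPKM in control sperm (SD, n = 3), 0.377% ± 0.00820 in control testes (SD, n = 2), 0.423% ± 0.0563 in cadmium sperm (SD, n = 2) and 0.360% ± 0.0178 in cadmium testes (SD, n = 2).

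**Figure D1:**
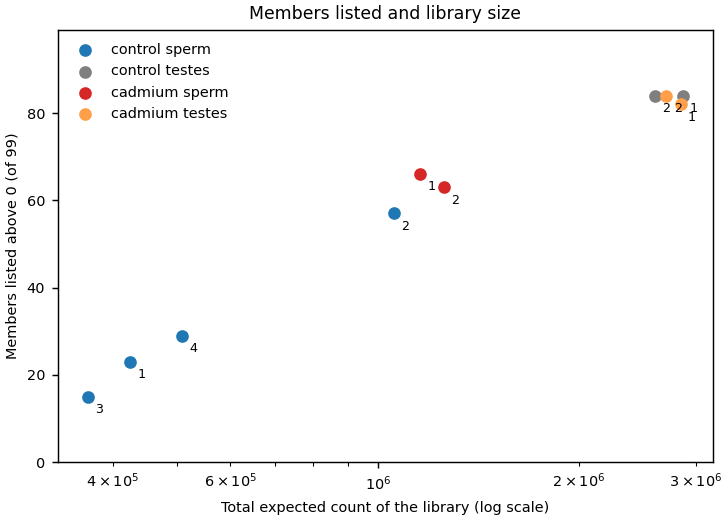
Number of the 99 members listed above 0 (vertical axis) against the library's total expected count (horizontal axis, log scale), 1 point per library with its replicate number and coloured by group. Control sperm 3 has the fewest counts and lists 15 members, and testes libraries have the most counts and list 82 to 84.

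All 99 members were listed somewhere, 8 of them in all 10 samples. These 8 were Otud3, Otud4, Ube2d2a, Ube2q2, Usp2, Usp3, Usp35 and Usp46. Another 19 members were in none of the 6 sperm libraries, among them Uba2, Uba3, Usp4 and Usp25, which were in all 4 testes libraries. In none of the testes libraries were 5 members found, namely Ube2d1, Ube2dnl1, Ube2e2, Ube2ql1 and Usp43, and the highest count of these in any library was 11, for Ube2d1. RefSeq holds another 10 genes with matching names that no table lists, among them Ube2a, Uba7, Usp11 and Usp33, so nothing can be said of their level here.

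The leading members differed in order between sperm and testes. In control testes the leading members by mean FPKM included Ube2v1, the partner of UBE2N in making lysine-63 chains, with 13.0 ± 1.31, Usp14, a protease that sits on the proteasome, with 11.7 ± 4.50, and Usp3, a histone deubiquitinase, with 8.14 ± 3.59 (SD, n = 2). In control sperm they were Usp46 with 15.5 ± 4.69, Ube2q2 with 14.2 ± 6.79 and Usp2 with 11.8 ± 15.9 (SD, n = 3). These 3 sperm means do not differ beyond their spread. Cadmium sperm was led by Ube2q2 with 25.7 ± 6.02, Usp46 with 23.0 ± 10.7 and Ube2d2a with 16.5 ± 5.01 FPKM (SD, n = 2), and the leading members of cadmium testes included Ube2v1 with 15.4 ± 0.672, Usp14 with 11.1 ± 3.22 and Usp3 with 8.95 ± 2.34 FPKM (SD, n = 2). Usp14 was thus among the first 3 members of both testes groups and was listed at 0 in all 4 control sperm pools.

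Control sperm was compared with control testes to ask which transcripts differ between the mature cell and the organ that makes it. In the edgeR quasi-likelihood test over 24432 genes of at least 1 FPKM in at least 2 of the 5 samples, 45 of the 99 members could be tested. Of these, 2 were called higher in sperm (Usp35 and Ube2d1) and 8 lower (Usp14, Usp8, Usp34, Usp50, Uba3, Usp1, Usp4 and Ube2d3), where a call needs a change of more than 2-fold and a p under 0.05 after Benjamini-Hochberg adjustment over all genes tested. Over all genes tested 22.0% were called, 4.19% higher and 17.8% lower in sperm, so that the members' share of 22.2% was close to the background. The median log2 fold change was -0.78 over the members tested and -1.24 over all genes tested. A member that passed the filter only through the tissue where it is high had to differ, so neither median is evidence of a change in the members as a group. DESeq2 called 3 members higher and 6 lower, and limma on log2(FPKM + 1) 0 higher and 11 lower. The calls were sensitive to single libraries. There were 5 without control sperm 2, 8 without control sperm 3 and 1 without control sperm 4. With a lone testes sample, a member under 1 FPKM in all sperm pools tested could not pass the filter. Those fits therefore cannot check the 8 lower calls. The median log2 fold change of the members still tested was -0.52 without control testes 1 and -0.13 without control testes 2. With all 4 pools 8 members were called, and 1 when the replicate number was also a block.

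Among the proteases, Usp14 showed the widest gap. It gave 99 and 157 counts in control testes (8.52 and 14.9 FPKM) and 0 in every control sperm pool. Against the limit of 3 counts over pools 2 to 4 it was at least 30.5-fold lower in sperm (edgeR adjusted p = 0.00035), and it was called in all 12 alternatives that could test it. Usp8, an endosomal protease linked to the forming acrosome, gave 3.95 and 2.41 FPKM in control testes and 0 in all sperm pools, at least 8.49-fold lower (edgeR adjusted p = 0.0402). The groups did not overlap for either gene, which the filter fixes for a member at 0 in all sperm pools tested.

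The giant protease Usp34, which acts in Wnt signalling, was at 3.08 and 3.64 FPKM in control testes and at 0.62, 0 and 0 FPKM in control sperm 2 to 4. The log2 fold change was -3.75 ± 1.27 (SE from the test, edgeR adjusted p = 0.0417), and the only pool above 0 was the deepest. Usp1, which removes ubiquitin from FANCD2 and PCNA, was at 2.05 and 1.62 FPKM in testes and 0 in all control sperm, at least 4.21-fold lower (edgeR adjusted p = 0.0467). Usp50 was at 2.66 and 1.80 FPKM in testes and 0 in control sperm, at least 2.45-fold lower, and Usp4 at 1.19 and 1.20 FPKM and 0, at least 2.71-fold lower (edgeR adjusted p = 0.0467 for both). These last genes stood on few reads, with 36, 21 and 23 counts in the 2 testes samples together for Usp1, Usp50 and Usp4.

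Usp35 went the other way. Its levels were 9.36, 18.0 and 4.47 FPKM in control sperm 2 to 4 and 1.26 and 0.39 FPKM in control testes, a log2 fold change of 3.46 ± 1.30 (edgeR adjusted p = 0.0467). In control sperm pool 1, outside the test, it was at 0.60 FPKM from 1 count, inside the range of testes. Of 14 alternatives the call was kept in 4, with the same direction in all 14. The gene lies at chr7:97309403-97332308 and the product is a little studied ubiquitin-specific protease.

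Among the activating and conjugating enzymes 3 were called. Uba3, the catalytic subunit of the NEDD8 E1, was at 1.58 and 1.39 FPKM in control testes and 0 in all sperm, at least 2.35-fold lower (edgeR adjusted p = 0.0467). Ube2d3 was at 6.47 and 5.00 FPKM in testes and at 0.36, 0 and 0 FPKM in control sperm 2 to 4. The sperm value of Ube2d3 rests on 1 count, and its rate in testes was 29.0 times that in sperm with an exact 95% counting interval of 5.05 to 1158 (edgeR adjusted p = 0.0482). Ube2d1 was at 0.68, 21.7 and 2.82 FPKM in control sperm 2 to 4 and 0 in both testes samples (edgeR adjusted p = 0.0364). In control sperm pool 1, outside the test, it was at 0. The mean rate of pools 2 to 4 was 21.2-fold above the limit of 3 counts over testes, but pool 3 dominates this mean. Of its 14 counts in these pools, 11 came from pool 3, where the Leydig marker sum was 27.5 FPKM from 1 of 5 genes. The testes libraries had Leydig sums of 15.6 to 22.2 FPKM and Ube2d1 at 0. The part of Leydig cells in the result was not tested.

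The ubiquitin E1 genes gave few counts, and none passed the filter for a test between sperm and testes. Uba1, on the X chromosome, was between 0 and 6.08 FPKM in the 4 control sperm pools and at 0.47 and 0.76 FPKM in control testes. Its Y-linked partner Uba1y was at 0 in control sperm, 0.50 and 0.29 FPKM in control testes and 0.91 and 0.53 FPKM in cadmium sperm. Uba6, the second E1 for ubiquitin, reached at most 2 counts in any library. Of the 9 members on the X chromosome, 0 to 4 were listed in a sperm library and 4 to 6 in a testes library. The highest X-linked value was for Otud6a, a gene without introns, which was at 31.3, 17.3, 0 and 0 FPKM in control sperm 1 to 4 and at 4.81 and 3.09 FPKM in control testes.

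Cadmium sperm and cadmium testes gave a second comparison of the tissues in other samples. Of 25780 genes tested, 31.7% were called, 16.3% higher and 15.4% lower in sperm. Among the members 43 were tested, 9 were higher and 7 lower, which is 37.2% called. The members' median log2 fold change was 0.28, beside -0.29 over all genes tested. With limma on log2(FPKM + 1) the members' median was -0.28, beside -0.44 over all genes tested. DESeq2 called 6 members higher and 3 lower, and limma on that scale 5 higher and 6 lower. Among those higher were Ube2d2a, Usp46, Usp35, Otud4, Ube2q2, Usp2, Ube2c and Ube2dnl1. Lower were Usp14, Usp29, Usp8, Usp47, Usp16, Usp4 and Usp44. All 16 called members had groups that did not overlap. For a member under 1 FPKM in both samples of 1 tissue the filter fixes this in advance. It is then no support for the call. Groups did not overlap for 14 members higher and 17 lower among the 43, beside 24.6% and 41.9% of all genes tested. Leaving out any library here leaves a lone sample, and a member under 1 FPKM throughout the other group then cannot pass the filter. Such fits cannot check the calls of those members. The median log2 fold change of the members still tested was -0.52 without cadmium sperm 1 and -0.05 without cadmium sperm 2. It was 0.40 without cadmium testes 1 and 0.92 without cadmium testes 2.

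**Figure D2:**
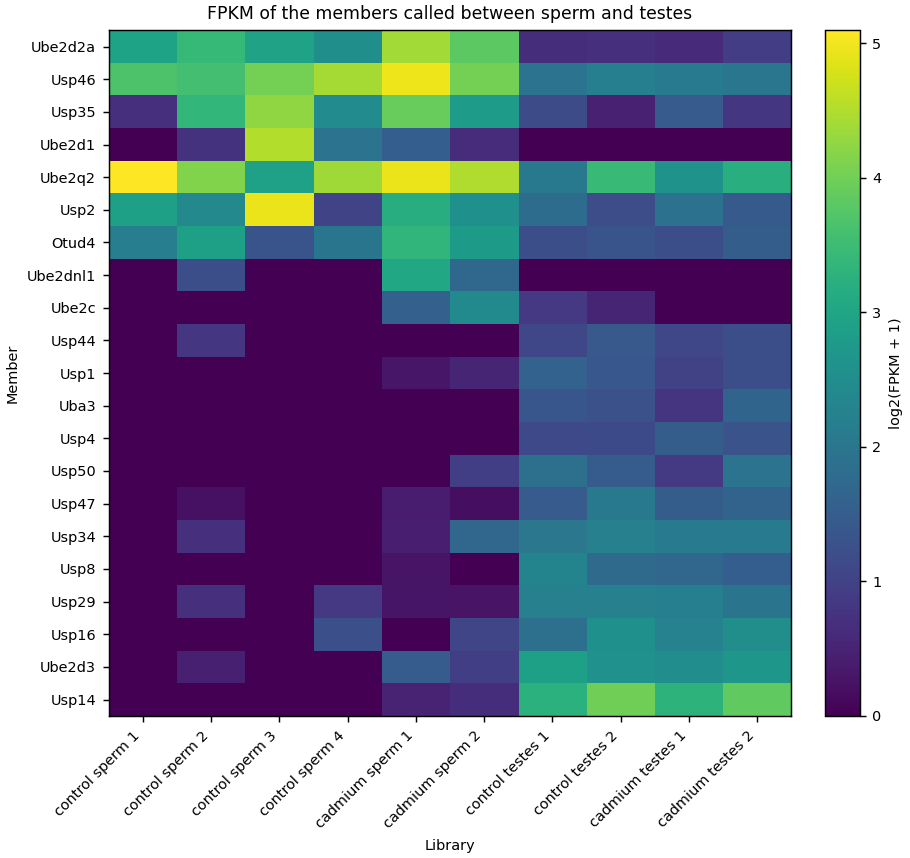
FPKM on the log2(FPKM + 1) colour scale of 21 members called in a comparison of sperm with testes (rows) in each of the 10 libraries (columns, sperm on the left). Rows run from members higher in sperm, such as Usp46 and Ube2d2a, to those higher in testes, such as Usp14, which is at 0 in the 4 control sperm pools.

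The conjugating enzymes called in the cadmium samples were all higher in sperm. Ube2q2 was at 30.0 and 21.5 FPKM in cadmium sperm and at 5.09 and 8.24 FPKM in cadmium testes, a log2 fold change of 2.12 ± 0.557 (SE, edgeR adjusted p = 0.00107). In the control samples it was at 33.2, 16.5, 6.59 and 19.6 FPKM in sperm and 3.18 and 9.90 FPKM in testes, where the groups overlapped in pool 3. Ube2c, the E2 of the anaphase-promoting complex, gave 2 and 5 counts in cadmium sperm and 0 in cadmium testes, at least 5.29-fold higher (edgeR adjusted p = 0.00194), though control testes held 2 counts and 1 count. Ube2dnl1, an X-linked UBE2D-like gene, gave 6 and 2 counts in cadmium sperm and 0 in every testes sample, at least 6.28-fold higher (edgeR adjusted p = 0.00131).

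Of the proteases, Usp46 had the highest mean FPKM in cadmium sperm. It was at 30.5 and 15.4 FPKM in cadmium sperm and 3.30 and 3.01 FPKM in cadmium testes, a log2 fold change of 3.06 ± 0.584 (edgeR adjusted p = 2.83e-06). The 4 control sperm pools gave 11.8, 10.9, 15.4 and 20.3 FPKM and the control testes 2.84 and 3.61, so that each of the 6 sperm libraries lay above each of the 4 testes libraries, although in the control comparison Usp46 did not pass the threshold. USP46 acts with WD-repeat cofactors and lies at chr5:73998726-74068411. Usp35 was at 14.1 and 6.05 FPKM in cadmium sperm and 1.74 and 0.75 FPKM in cadmium testes, with a log2 fold change of 3.23 ± 0.628 (edgeR adjusted p = 4.48e-06). The OTU protease Otud4 was at 9.20 and 5.87 FPKM and at 1.35 and 1.82 FPKM, a log2 fold change of 2.43 ± 0.573 (edgeR adjusted p = 0.000217). Usp2, whose loss is known to impair male fertility in mice, was at 8.0 and 4.93 FPKM and at 2.74 and 1.72 FPKM, with a log2 fold change of 1.64 ± 0.627 (edgeR adjusted p = 0.0313).

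The 7 members lower in cadmium sperm were all proteases of the USP family. Usp14 gave 2 and 3 counts in cadmium sperm and 102 and 147 in cadmium testes, a log2 fold change of -4.22 ± 0.750 (edgeR adjusted p = 4.08e-07). Usp29, a gene of the imprinted Peg3 region, was at 0.23 and 0.21 FPKM in cadmium sperm and 3.58 and 2.92 FPKM in cadmium testes, with a log2 fold change of -3.58 ± 0.826 (edgeR adjusted p = 0.000151). In control samples Usp29 was at 0, 0.63, 0 and 0.79 FPKM in sperm and 3.69 and 3.65 FPKM in testes. The filter fixes the lack of overlap there, and the adjusted p was 0.101 in edgeR.

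Usp8 gave 1 count in cadmium sperm and 47 in cadmium testes, a rate 20.4 times higher in testes with an exact 95% counting interval of 3.49 to 822 (edgeR adjusted p = 0.00882). Usp47, which acts in base excision repair, gave 3 and 60 counts, a rate 8.68 times higher in testes with an interval of 2.83 to 43.3 (edgeR adjusted p = 0.0161). Usp4 was listed at 0 in cadmium sperm and had 33 counts in cadmium testes, at least 4.76-fold lower in sperm (edgeR adjusted p = 0.00622). Usp44, a mitotic checkpoint protease, was at 0 against 17 counts, at least 2.46-fold lower (edgeR adjusted p = 0.0357). Usp16, which removes ubiquitin from histone H2A, was at 0 and 1.10 FPKM in cadmium sperm and 3.78 and 4.74 FPKM in cadmium testes, with a log2 fold change of -2.62 ± 0.913 (edgeR adjusted p = 0.0172).

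Both tissue comparisons could test 40 members, and 33 of these, 82.5%, had the same fitted direction in both, as did 83.1% of the 4221 NM_ genes tested in both. Called in both were 4 members, each in the same direction, which is 40.0% of the 10 called in control samples and 25.0% of the 16 called in cadmium samples. Over all NM_ genes, 714 were called in both, 713 of them in the same direction, so a shared direction is not particular to the members. These 714 are 59.1% of the 1209 called in control samples and 35.4% of the 2017 called in cadmium samples. The 4 members were Usp35, higher in sperm, and Usp14, Usp8 and Usp4, lower. Of the other members called in 1 comparison, those tested in the other had the same fitted direction there. The like share over all NM_ genes called in 1 comparison was not counted. The difference between the 2 tissue comparisons is the difference of the cadmium effect, which was tested for 50 members and called for 0. Its SE was very wide for some members with whole groups at 0, so this does not show that the comparisons are alike.

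**Figure D3:**
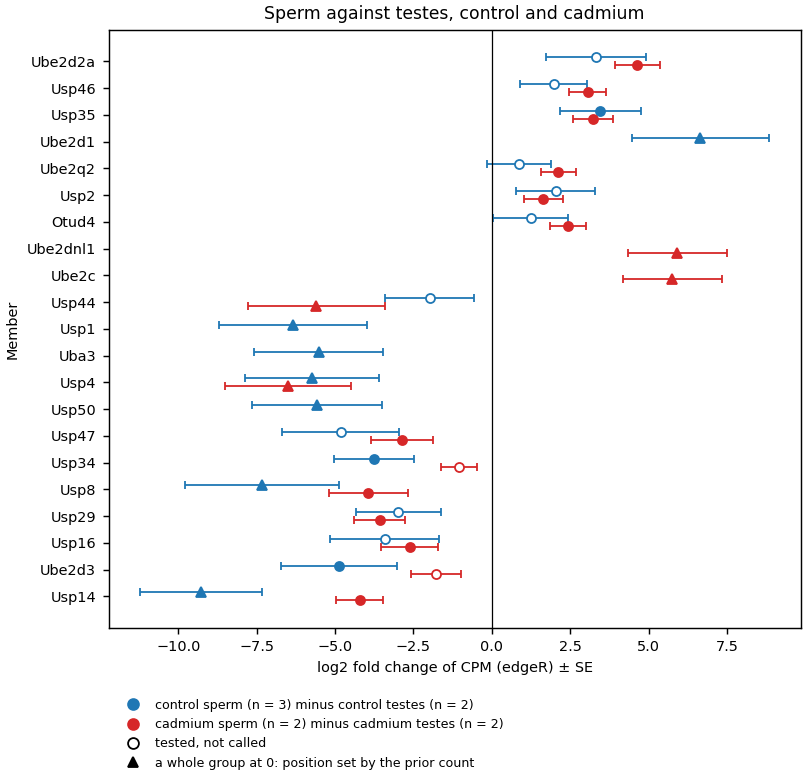
log2 fold change of sperm over testes with its SE (horizontal axis) for 21 members called in a comparison of sperm with testes, in control samples (blue) and cadmium samples (red). Filled symbols were called, and triangles mark members with a whole group at 0, whose position depends on the prior count and is not a bound; Usp35, Usp14, Usp8 and Usp4 are filled in both colours.

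The UBE2D enzymes, which pass ubiquitin to many E3 ligases and are close copies of each other, differed in makeup between sperm and testes. Ube2d2a was at 6.74, 9.62, 6.71 and 4.81 FPKM in control sperm 1 to 4 and 20.1 and 13.0 FPKM in cadmium sperm. In testes it was at 0.59 and 0.64 FPKM in control and 0.52 and 0.91 FPKM in cadmium samples. All 6 sperm libraries lay above all 4 testes libraries. The log2 fold change was 4.65 ± 0.703 in the cadmium samples (edgeR adjusted p = 1.67e-09) and 3.31 ± 1.60 in the control samples, where it was not called (edgeR adjusted p = 0.128). Ube2d3 ran the other way, with 0 to 0.36 FPKM in control sperm and 1.79 and 0.92 FPKM in cadmium sperm, beside 4.68 to 6.47 FPKM in the testes libraries. Its log2 fold change in the cadmium samples was -1.77 ± 0.796 (edgeR adjusted p = 0.073), which did not pass the threshold.

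As a share of the summed FPKM of the 6 UBE2D genes, Ube2d2a held 100%, 61.7%, 23.6% and 63.0% in control sperm 1 to 4 and 54.9% and 71.1% in cadmium sperm, against 4.68% to 10.3% in testes. Ube2d3 held 51.3% to 62.4% in testes and 0% to 5.04% in sperm. Ube2d1, which no testes library listed, held 76.4% in control sperm 3 and 37.0% in control sperm 4. Ube2d2a was above Ube2d3 in 6 of 6 sperm libraries and below it in 4 of 4 testes libraries, on the FPKM scale. The summed counts behind this are 141 for Ube2d2a and 9.36 for Ube2d3 in sperm, and 17.8 and 154 in testes. Near-identical copies can share reads, so how the counting split reads among the UBE2D genes makes each single value uncertain.

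**Figure D4:**
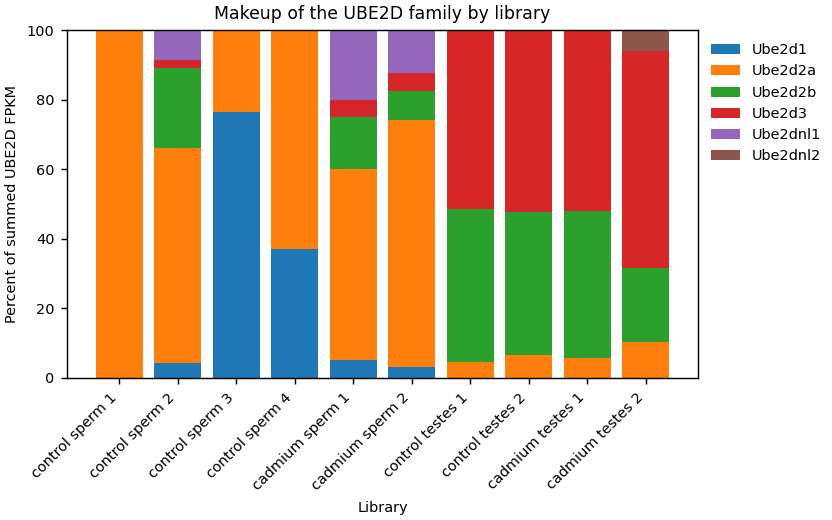
Share of each UBE2D gene in the summed FPKM of the 6 UBE2D genes (stacked bars, percent) in each library, sperm on the left. Ube2d2a holds 23.6% to 100% in sperm and Ube2d3 51.3% to 62.4% in testes.

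Members with several NM_ transcripts numbered 21, and 18 of them were listed in both tissues. The leading transcript by summed FPKM was the same in testes and sperm for 11 and differed for 7. This count has a high background, because in 5 of the 21 members the leading transcript differed even between the 2 control testes samples. Among these 7, Usp2 had the most counts in sperm, 113 over the 6 libraries. NM_198091, of 3226 bases, held 77.8%, 78.8%, 100% and 0% of the Usp2 count in control sperm 1 to 4 and 70.1% and 61.7% in cadmium sperm, against 11.4% and 27.6% in the testes of control mice and 15.0% and 24.2% in those of cadmium mice. NM_198092, of 3867 bases, held 88.6% and 34.7% in the control testes, held 85.0% and 75.8% in the cadmium testes, and was above 0 in sperm only in control pool 2 with 21.2%. The pool at 0% of NM_198091, control sperm 4, had 2 Usp2 counts in all.

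**Figure D5:**
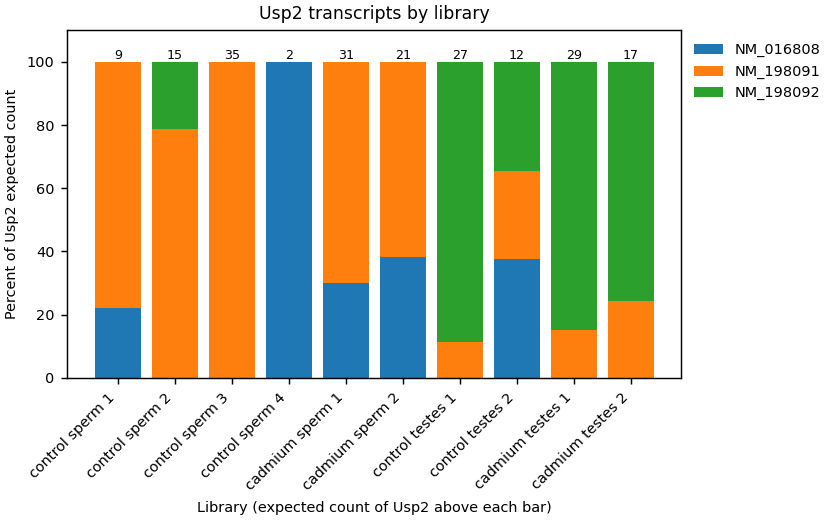
Share of the 3 Usp2 transcripts in the expected count of Usp2 (stacked bars, percent) in each library, with the Usp2 count above each bar. NM_198091 leads in 5 of 6 sperm libraries and NM_198092 in 3 of the 4 testes libraries, and control sperm 4 rests on 2 counts.

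Cadmium was compared with control within testes and within sperm, to ask which transcripts differ after exposure. In testes 43 members were tested and 0 were called by edgeR, with 0 at an unadjusted p under 0.05 and 0 called by DESeq2 or limma, and 0.0225% of all 26724 genes tested were called. The median log2 fold change of the members was 0.03. Usp14 was at 8.85 and 13.4 FPKM in cadmium testes and 8.52 and 14.9 FPKM in control testes, and Ube2v1 at 14.9 and 15.9 FPKM and at 12.0 and 13.9 FPKM. With 2 samples in each group such values do not show that the groups are alike.

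In sperm 36 members were tested and 0 were called by edgeR, DESeq2 or limma on log2(FPKM + 1), beside 0.0824% of all 20640 genes tested by edgeR. The median log2 fold change over all genes was 0.43 with TMM and 0.27 with RLE scaling, and over the members 0.75 and 0.58. With limma on log2(FPKM + 0.1) 2 members were called, beside 5.66% of all genes, and the same 2 had an unadjusted p under 0.05 in edgeR, beside 6.56% of all genes, both higher in cadmium sperm. Shares of 2 in 36 are near these backgrounds. Ube2b, the RAD6 homologue known to be needed for spermatogenesis, was at 1.65 and 3.04 FPKM in cadmium sperm from 4 and 8 counts, and at 0 in all 4 control pools (edgeR adjusted p = 0.546). Ube2c was at 1.94 and 4.46 FPKM from 2 and 5 counts and also at 0 in all control pools (edgeR adjusted p = 0.546). Against 3 counts over control pools 2 to 4 these were at least 3.17-fold and 1.84-fold higher. Both cadmium sperm libraries were deeper than every control sperm pool, and the part of depth in these values was not tested. Of the markers of other cells, some were higher in cadmium sperm and some were not. The summed FPKM of the 6 epithelial and epididymal markers was 3.19 and 4.20 in cadmium sperm, with 3 of 6 listed in each, beside 0, 0, 6.2 and 0 in control sperm 1 to 4. Of these, Crisp1 was at 2.50 and 2.31 FPKM and Cdh1 at 0.20 and 0.54 FPKM in cadmium sperm, and both were at 0 in the control pools. Krt8 was at 0.49 and 1.35 FPKM in cadmium sperm and at 6.2 FPKM in control sperm 3. Lcn5, Lcn8 and Defb20 were at 0 in all sperm libraries. The 4 leukocyte markers summed to 2.71 and 1.04 FPKM in cadmium sperm and to 0, 0.62, 0 and 4.84 FPKM in control sperm. Cd4 was at 1.69 and 1.04 FPKM in cadmium sperm beside 0, 0.62, 0 and 0 in control sperm. Cd14 was at 0 in cadmium sperm and at 4.84 FPKM in control sperm 4. The part of these cells in the result was not tested. In 11 of the 36 members every cadmium sperm value lay above the control values and in 1 below, beside 21.7% and 1.85% of all genes tested.

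Both cadmium comparisons were set against each other in 1 model of 9 samples. For 50 members the difference of the cadmium effect between sperm and testes was tested, and 0 were called by edgeR, DESeq2 or limma, beside 0.0396% of 32814 genes tested. Members with whole groups at 0 could not be judged, with an edgeR SE of 4139 for Ube2d1, 5694 for Ube2dnl1 and 1557 for Usp4. An unadjusted p under 0.05 was found for 2, beside 3.77% of all genes, again Ube2b and Ube2c, and both had an edgeR adjusted p near 1.

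The other parts of the pathway were read from 3 lists of genes that are not members. Over all genes tested, 22.0% were called between sperm and testes in the control samples and 31.7% in the cadmium samples. Beside these shares, the few calls in the lists are not a result about the pathway. Of 9 genes for ubiquitin and ubiquitin-like proteins, 6 were tested between control sperm and control testes and 1 was lower. This was Rps27a, which encodes ubiquitin fused to a ribosomal protein. It was at 14.8 and 8.15 FPKM in control testes and 0 in all control sperm. In the cadmium samples Rps27a was at 0 and 3.25 FPKM in sperm and at 16.0 and 3.91 FPKM in testes, and was not called. Of the same 9 genes, 5 were tested in the cadmium samples and 1 was lower, the polyubiquitin gene Ubb. It was at 10.3 and 3.15 FPKM in sperm and 17.1 and 36.9 FPKM in testes. Of 20 other deubiquitinases, 6 were tested and 0 called by edgeR in the control samples, with 0 at an unadjusted p under 0.05. In the cadmium samples 7 were tested, Josd2 was higher in sperm with 2.99 and 4.72 FPKM against 0 and 0.37 FPKM, and Otub2 lower with 0.31 and 0 FPKM against 2.65 and 1.73 FPKM. In the control samples Josd2 ran the other way, at 0 in all 4 sperm pools and at 1.22 and 0.77 FPKM in testes. Otub2 overlapped there, at 0, 1.47, 0 and 4.24 FPKM in sperm and 3.41 and 1.80 FPKM in testes.

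Of 25 genes for cullin-RING and germ cell E3 ligases, 12 were tested in the control samples and 1 was lower in sperm, the cullin adaptor Skp1a. It was at 0 in control sperm and at 1.48 and 1.36 FPKM in control testes. Like Rps27a it passed the filter only through control testes, which fixes the lack of overlap. In cadmium samples Skp1a was at 0 in sperm and at 0.25 and 0.26 FPKM in testes, too low for a test. Of these 25 genes, 11 were tested in the cadmium samples, where Cul3 was higher in sperm and Rnf8 lower. Rnf8, the E3 ligase of meiotic sex chromosome ubiquitination, was at 9.14 and 7.25 FPKM in cadmium testes and 0 in cadmium sperm, and at 9.06 and 7.73 FPKM in control testes beside 0, 0, 0 and 4.81 FPKM in control sperm. Cul3 was at 4.23 and 2.92 FPKM in cadmium sperm and 1.08 and 1.43 FPKM in cadmium testes. In the control samples it overlapped, at 2.89, 3.08, 0 and 5.61 FPKM in sperm and 1.00 and 2.98 FPKM in testes. In none of the 3 lists was a gene called for cadmium in testes or in sperm by edgeR, and an unadjusted p under 0.05 was found for 1 of the other deubiquitinases in each tissue and for 0 genes of the other lists.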

How the data were processed

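RNA depleted of ribosomal RNA was sequenced from 10 libraries. The authors deposited, for each sample, the transcripts above 0 with an expected count, which is not normalized, and an FPKM, which the authors scaled to transcript length and library size. The submitters' processing notes name HISAT and mm10, the study's methods SOAPaligner/SOAP2, and the tool that gave the expected counts is not given in the sources used here. Both values were summed by gene over NM_ transcripts, and over the other transcripts of a gene by class, and a transcript not listed was taken as 0.

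Genes that reached 1 FPKM in 2 or more of the samples compared were tested by edgeR 4.0.16 (R 4.3.3) on rounded expected counts with TMM, adjusted over all genes tested. The SE was worked back from the F statistic of the test, as the size of the log2 fold change over its square root. A fold against a group at 0 sets the mean rate of the other group's libraries against 3 counts over the group at 0. Such a bound covers counting error in the group at 0 only, not the spread between libraries. DESeq2 1.42.0 and limma 3.58.1 on log2(FPKM + 1) were alternatives. The test was run on simulated data as a check of the code. The pass condition used a set spread between replicates, so it does not show how well the test works at the spread of these samples. Replicates differed by more than sampling noise in every pair. The exact counting intervals cover sampling noise only, so they are too narrow for the difference between tissues. P-values measure the spread between these samples. The results of some members are not reported here. Named members were those called, the 10 highest of each group and a list of known enzymes. Members and lists were chosen with earlier results of these data known. Tables and figures used Python 3.11.15 with pandas 2.3.3 and matplotlib 3.10.9.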

Additional observations from a re-analysis of the deposited data

Results flagged for a closer look

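In the group of 4 control sperm pools, 13 of 31 named members with a value above 0 had 1 pool whose distance to the nearest other pool was more than Dixon's 95% limit allows. Chance flags about 1 in 20 groups. In 9 of the 13 the other pools were all at 0, so that a single listing sets the flag, and in 10 the high pool was control sperm 2, the deepest. In control sperm 2, Otud3 was at 9.23 FPKM against 3.61 in the next pool, and Ube2v1 at 9.44 against 1.32. Members listed in that pool alone were Ube2d2b at 3.58 FPKM, Ube2dnl1 at 1.34, Usp44 at 0.75, Usp34 at 0.62, Ube2j1 at 0.54, Ube2d3 at 0.36, Ube2n at 0.25 and Usp47 at 0.17. Ube2d1 stood at 21.7 FPKM in control sperm 3 against 2.82 in the next pool, Usp16 at 1.36 FPKM in control sperm 4 alone, and Ube2s at 17.5 FPKM in control sperm 1 against 1.99. The causes were not tested.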

How the results depend on the processing

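Of the 26 member changes called, 290 values under alternatives kept the direction in every case, 195 kept the call and 95 did not pass the threshold, while 42 could not be tested. A whole group was at 0 for 7 of the calls in control samples and 4 in cadmium samples, which fixes their direction in advance. The alternatives also use the same libraries, so the kept direction is no separate support for the calls. Between control sperm and control testes 10 members were called, and 1 without a filter on low values. Between cadmium sperm and testes 16 were called, 9 with DESeq2 and 10 with limma on log2(FPKM + 0.1). For cadmium in sperm that limma fit called 2 members of 36, Ube2b and Ube2c, beside 5.66% of all genes. Leaving out each library in turn gave 0 to 8 members for control sperm against testes, 1 to 12 for cadmium sperm against testes and 0 for the other comparisons, with a lone sample assumed to vary like the other groups. The causes were not tested. The members listed ranged from 32 to 61 in control sperm, and from 84 to 84, 63 to 66 and 82 to 84 in control testes, cadmium sperm and cadmium testes. At 1 FPKM or more, 46, 39 and 45 members were listed in control testes, cadmium sperm and cadmium testes. As a share of NM_ counts the members held 0.457% in control sperm, 0.488% in control testes, 0.514% in cadmium sperm and 0.476% in cadmium testes. This share with 1 member left out is not reported here.

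Same-numbered samples share only a number, since neither the labels nor the study's methods say which samples belong together, and with 2 pairs the correlation of deviations was above 0.1 only between control and cadmium testes (0.426). With the replicate number as a block and all 4 control sperm pools, 1 member was called between control sperm and testes. The block gave 14 between cadmium sperm and testes and 0 in the other comparisons.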
